A study of Mus musculus with 10 samples.

Results

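The 8 genes described here are Prdm1, Xbp1, Irf4, Ell2, Jchain, Fam46c, Pou2af1 and Zbtb20, regulators and products of the antibody-secreting cell. They were chosen by gene symbol, with earlier results of these data known. All 8 were present among the 46959 genes of the deposited count table. The series holds RNA-seq of 10 libraries labelled as B cells of mice. For 6 of these, CD43-negative spleen cells, largely resting B cells, were kept in culture for 2 days with lipopolysaccharide (LPS, 5 µg/ml), a component of bacterial outer membranes that makes B cells proliferate and turn into antibody secretors. The 3 cultured groups, each with n = 2, were BLACK-6 control (WT) cells with LPS alone, WT cells with LPS plus SAHA (200 ng/ml, added at the start), and KOKI cells. SAHA, also called vorinostat, inhibits histone deacetylases. The other 4 libraries were each a pool of 3 mice and are labelled femoral B cells, taken without culture. These were 2 control pools deficient for RAG2 and gamma c, 1 pool of KOKI mice deficient for both and 1 pool of KOKI mice deficient for RAG2 alone. All femoral mice are thus labelled deficient for RAG2, part of the enzyme that assembles antigen receptor genes. Counts summed over the whole gene do not show these deficiencies. Rag2 had 153 to 268 counts in each femoral library and 0 to 4 in each splenic one. Il2rg, which encodes gamma c, was at 7.06 to 10.5 CPM in the 3 libraries labelled deficient for it and 11.2 CPM in the pool deficient for RAG2 alone. Which part of either gene is altered is not stated, so RNA from it does not check the labels. What KOKI abbreviates is not stated, but the series title names a mini 3'RR, and the 3'RR is the regulatory region downstream of the heavy chain genes.

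For the KOKI cultures the labels conflict: LPS is the agent in the titles and the design text, but LPS with SAHA in the treatment field. Here the titles decided the group, and KOKI was set against both WT groups. The library names of the SAHA cultures also carry D3, where the protocol states 2 days.

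In activated B cells, IRF4 and then BLIMP-1, the product of Prdm1, shut down the B cell programme and switch on antibody secretion. XBP1 expands the endoplasmic reticulum, in which antibody chains are folded. ELL2, an elongation factor, favours the secreted form of the heavy chain messenger RNA, and the J chain protein links IgM and IgA into polymers. OBF-1, the product of Pou2af1, is the B cell coactivator of the octamer-binding factors OCT-1 and OCT-2. FAM46C adds adenosines to the tails of messenger RNAs of secreted proteins, and ZBTB20 is a zinc finger protein needed for long-lived plasma cells.

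Levels are given as counts scaled to library size (CPM, the usual per-million unit) after TMM scaling over all 10 libraries, a scaling that sets most genes equal between libraries. Total counts ran from 18614742 to 29314068 per library. In the splenic libraries the mature B cell markers were all present (9 of 9, summed level 3498 to 5037 CPM). In the femoral libraries the same list summed to 129 to 169 CPM, Cr2 had 0 counts in all 4 libraries, and Ms4a1 (CD20) reached at most 0.0890 CPM. Neutrophil markers (9 of 9 with counts) summed to 11849 to 20280.2 CPM there and erythroid markers (8 of 8) to 9094 to 12556 CPM, so the label femoral B cells was not borne out by the defining markers. Of the splenic libraries, WT LPS+SAHA replicate 2 stood apart in olfactory receptor genes, of which 451 among 1292 had counts there. Replicate 1 had 126 and the other cultures 15 to 47. KOKI replicate 2 had 8499 counts of Xist, against at most 9 in every other library.

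Promoter sequences of 5 of the 6 genes that rose together in KOKI cultures are shown first, as the stretch just before the gene start that RefSeq gives. The sixth, Fam46c, is not shown because its window lies in an exon of the deposited table. Each is 100 bases, from RefSeq, build GRCm38.p6, read along the gene's strand and ending at the base before the start. The windows are chr10:44458749-44458848 on the minus strand (Prdm1), chr11:5520541-5520640 on the plus strand (Xbp1), chr13:75707384-75707483 on the plus strand (Ell2), chr5:88527898-88527997 on the minus strand (Jchain) and chr9:51213590-51213689 on the plus strand (Pou2af1). Capitals mark CCACG, found in elements bound by XBP1 and ATF6, and ACGTG, a core of unfolded protein response elements, on either strand. These motifs can overlap, as they do in Pou2af1. For Prdm1 the RefSeq start lies 69753 bases downstream of the 5′ end of the gene in the deposited table, so its window is inside the gene's range and belongs to 1 of its possible starts. For the other 4 genes shown, the 2 starts differ by 0 to 18 bases.
Prdm1: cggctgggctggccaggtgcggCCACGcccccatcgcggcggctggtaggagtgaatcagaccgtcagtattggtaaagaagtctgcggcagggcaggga
Xbp1: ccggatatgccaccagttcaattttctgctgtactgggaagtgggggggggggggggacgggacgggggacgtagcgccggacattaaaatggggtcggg
Ell2: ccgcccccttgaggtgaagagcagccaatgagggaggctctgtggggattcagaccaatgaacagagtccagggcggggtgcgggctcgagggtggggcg
Jchain: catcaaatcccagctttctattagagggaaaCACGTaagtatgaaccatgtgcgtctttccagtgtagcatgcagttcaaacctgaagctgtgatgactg
Pou2af1: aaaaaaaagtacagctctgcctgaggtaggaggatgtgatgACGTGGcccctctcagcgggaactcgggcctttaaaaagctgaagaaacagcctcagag

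All 8 genes matched a promoter entry, Fam46c under its RefSeq symbol Tent5c. Over each whole entry, which also holds a short stretch after the start, CCACG was found for Prdm1, Irf4 and Pou2af1 and ACGTG for Jchain and Pou2af1. Of all 32851 entries of that length, 32.8% held CCACG and 19.6% held ACGTG on either strand. The octamer ATGCAAAT, held by 1.74% of entries, was in none of the 8. GAAAGTG, a core of BLIMP-1 sites held by 4.81%, was found for Irf4, across the start on the strand opposite the gene. TATAAA, held by 13.6%, was also found for Irf4. The paired IRF half-sites of the interferon response element (3.44% of entries) and the composite ETS-IRF element (2.72%) were in none of the 8 windows.

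KOKI cultures held more RNA of 6 of the 8 genes than WT LPS cultures. Prdm1, Xbp1, Ell2, Jchain, Fam46c and Pou2af1 rose, 0 members fell, and Irf4 and Zbtb20 did not pass (edgeR, adjusted p under 0.05 over 15342 genes). Of all genes tested, 4.08% were called, 2.25% higher and 1.83% lower. The question behind the comparison, from the series title, is what the regulatory region of the heavy chain locus does to transcription of that locus. None of these 8 genes lies on chromosome 12, which carries the heavy chain locus. With RNA from whole cultures, more cells of a type and more RNA per cell cannot be told apart.

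Prdm1 (chromosome 10, 44437177 to 44528501, minus strand) stood at 31.8 and 32.7 CPM in the WT LPS cultures and at 87.9 and 80.3 CPM in the KOKI cultures. Both KOKI values lay above both WT values. The difference was log2 1.41 (SE 0.12, edgeR adjusted p = 0.000912). Xbp1 (chromosome 11, 5520659 to 5525893, plus strand) was at 106 and 113 CPM in WT LPS and 318 and 297 CPM in KOKI. That was log2 1.51 (SE 0.15, edgeR adjusted p = 0.00174), again with no overlap of the groups. The counts are summed over the gene, so the spliced form of Xbp1 RNA, which encodes the active factor, was not measured apart. Irf4 (chromosome 13, 30749226 to 30766927, plus strand) was at 335 and 356 CPM in WT LPS and 441 and 419 CPM in KOKI. These values did not overlap either, but the difference of log2 0.34 (SE 0.15) did not pass (edgeR adjusted p = 0.294).

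Jchain (chromosome 5, 88519809 to 88527891, minus strand) had the largest difference of the 8. It stood at 64.0 and 47.2 CPM in WT LPS, and at 373 and 280 CPM in KOKI. Both KOKI cultures lay above both WT cultures, and in these groups the replicates of Jchain were further apart, relative to their level, than those of the other members. The rise was log2 2.58 (SE 0.20, edgeR adjusted p = 0.000627). Ell2 (chromosome 13, 75707484 to 75772356, plus strand) was at 60.4 and 63.5 CPM in WT LPS and 167 and 152 CPM in KOKI, a rise of log2 1.39 (SE 0.12, edgeR adjusted p = 0.00102). For Fam46c (chromosome 3, 100451628 to 100489324, minus strand) the values were 54.9 and 57.0 CPM in WT LPS and 166 and 160 CPM in KOKI. This rise of log2 1.57 (SE 0.15, edgeR adjusted p = 0.00126) was close in size to those of Prdm1 and Xbp1.

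Pou2af1 (chromosome 9, 51213690 to 51240079, plus strand) was at 272 and 310 CPM in WT LPS and 565 and 604 CPM in KOKI. It rose by log2 1.03 (SE 0.17, edgeR adjusted p = 0.0144). This was the one call among the 6 that was lost when a library was left out. Adjusted p was 0.0952 without WT LPS replicate 1, 0.0598 without KOKI replicate 1 and 0.101 without KOKI replicate 2. Zbtb20 (chromosome 16, 42875881 to 43642602, plus strand) was at 73.2 and 70.4 CPM in WT LPS and 76.3 and 67.1 CPM in KOKI, so the groups overlapped. Its difference was log2 0.02 (95% interval −0.27 to 0.32, edgeR adjusted p = 0.967). Zbtb20 was the one member with exons that share bases with other genes of the table, 104 bases with Gm9968 on the opposite strand and 83 with Mir568.

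**Figure D1:**
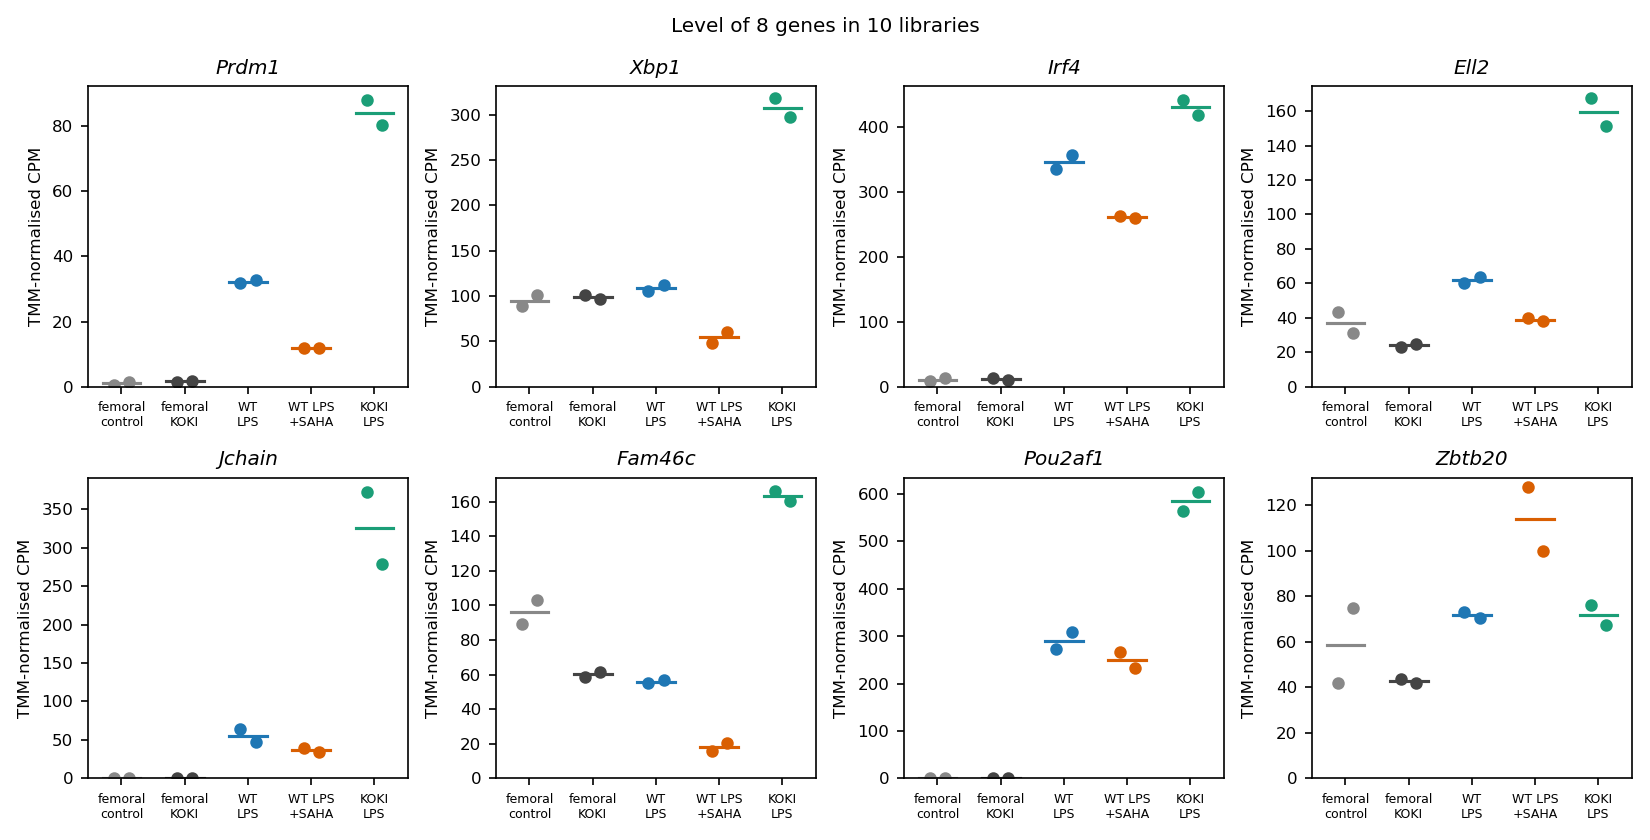
TMM-normalised CPM (vertical axes, from 0) of each gene in the 10 libraries, as points by group, with a bar at the group mean of 2 libraries. In KOKI cultures 7 genes, all but Zbtb20, lie above every other group, with Prdm1 at 80.3 and 87.9 CPM and Jchain at 280 and 373 CPM, while Zbtb20 is highest with SAHA, at 99.7 and 128 CPM.

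Markers of other cells moved alongside. T and NK cell markers summed to 1.20 to 1.77 CPM in KOKI (7 of 8 with counts, Klrb1c at 0) and 3.68 to 3.87 CPM in WT LPS (8 of 8). Macrophage markers summed to 15.7 to 16.7 CPM in KOKI (6 of 8, Fcgr1 and Vcam1 at 0) and 28.3 to 28.6 CPM in WT LPS (7 of 8, Fcgr1 at 0). Plasma cell markers summed to 653 to 674 CPM in KOKI (6 of 6) and 316 to 394 CPM in WT LPS (5 of 6, Tnfrsf17 at 0). The part of these cell types in the rises was not tested. The mature B cell sums were 3498 to 3847 CPM in KOKI and 3898 to 4249 CPM in WT LPS, and Ms4a1 was at 924 and 955 against 968 and 949 CPM. Of the 9 log2 values of this list 7 were below 0 and 2 above, the lowest being Ighd at −0.66. By edgeR 0 of the 9 passed. The Xist counts set KOKI replicate 2 apart, and without it 5 of the 6 rises passed, Pou2af1 being the exception.

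The other genes of the plasma cell programme were read from lists chosen, like the members, with earlier results of these data known. Of 41 genes of the secretory machinery and XBP1 targets, 20 were higher in KOKI, 0 were lower and 21 did not pass, with a median of log2 0.69 against −0.02 over all genes tested. Fkbp11, a folding catalyst of the endoplasmic reticulum, went from 1.79 and 2.51 CPM to 13.6 and 15.4 CPM (log2 2.78), and Sec24d, a coat subunit of vesicles leaving it, from 10.9 and 11.6 to 37.6 and 45.5 CPM (log2 1.91). Ckap4, a membrane protein of the same compartment, rose by log2 1.84. DESeq2 called 29 of them and edgeR without a low-count filter 25. Without 1 of the 4 compared libraries the count was lower, at 7 without WT LPS replicate 1 or KOKI replicate 2 and 8 without WT LPS replicate 2 or KOKI replicate 1, while the median stayed between log2 0.59 and 0.74. Ern1, which encodes IRE1, the enzyme that splices Xbp1 RNA, was the called gene among 4 stress sensors (log2 1.45, edgeR adjusted p = 0.0216).

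Of 14 surface genes of plasma cells tested, 3 were higher and 0 lower in KOKI, with a median of log2 0.13 against −0.02 over all genes. Sdc1 (CD138) went from 5.75 and 5.06 CPM to 18.5 and 19.3 CPM (log2 1.83), and Il6st, the signalling chain of the IL-6 receptor, from a mean of 15.4 to 32.1 CPM (log2 1.08). Itga4, an integrin chain, rose by log2 0.79. Of the 14 log2 values 7 were above 0 and 7 below, the lowest being Ly6c2 at −1.76 (SE 0.47, edgeR adjusted p = 0.0891). DESeq2, the fit without a low-count filter and the fit of all 10 libraries each called 1 gene of this list lower. Leaving out WT LPS replicate 1 or KOKI replicate 2 brought the count to 1. Among 16 elongation and poly(A) site factors, 2 were higher and 0 lower (median log2 −0.07). These were Eaf2, a partner of ELL proteins (log2 1.69), and Mllt3, a subunit of the super elongation complex (log2 0.96). That count was 0 without KOKI replicate 1, and 1 without KOKI replicate 2 or WT LPS replicate 2. Fam46a, the one tested relative of Fam46c, fell from 24.3 and 25.5 to 16.3 and 13.5 CPM (log2 −0.72, edgeR adjusted p = 0.041).

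Regulators that hold the B cell state did not pass in the main fit. Of 13 tested, 0 were called there in either direction by edgeR (median log2 0.00). The same held for 13 further transcriptional regulators, OCT-1, OCT-2 and possible partners of IRF4 among them (median log2 0.11). DESeq2 and edgeR without a low-count filter each called 1 higher and 1 lower of the former. The fit of all 10 libraries called 1 of them higher, and a fit with the replicate number as a block 1 lower. Each of these 4 analyses called 0 of the latter. At an unadjusted p under 0.05 the counts of the main edgeR fit were 2 and 0. Those 2 were Id3 at log2 −0.75 and Mitf, at a mean of 0.274 CPM in WT LPS, at log2 2.59. Of the 13 log2 values of the opposing regulators, 7 were above 0 and 6 below. Pax5, which maintains B cell identity, was at 299 and 341 CPM in WT LPS and 272 and 276 CPM in KOKI (log2 −0.20, SE 0.16). Bcl6, a repressor of Prdm1, was at log2 −0.15 and Bach2, another, at log2 −0.14.

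With SAHA, 4 of the 8 genes were lower in WT LPS cultures and 1 was higher. Prdm1, Xbp1, Ell2 and Fam46c fell, Zbtb20 rose, and Irf4, Jchain and Pou2af1 did not pass (edgeR, adjusted p under 0.05 over 15342 genes). Over all genes, 4.64% were called, 3.69% lower and 0.952% higher. The comparison asks what the HDAC inhibitor does to LPS-stimulated B cells.

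In the SAHA cultures Prdm1 was at 11.9 and 11.8 CPM, against 31.8 and 32.7 CPM without SAHA. The 2 SAHA cultures were nearly equal, and the fall was log2 −1.42 (SE 0.13, edgeR adjusted p = 0.0185). Xbp1 was at 48.8 and 60.2 CPM with SAHA, below the 106 and 113 CPM of the WT LPS cultures (log2 −0.98, SE 0.15, edgeR adjusted p = 0.025). Fam46c had the largest fall of the set, to 15.9 and 20.4 CPM from 54.9 and 57.0 CPM (log2 −1.59, SE 0.15, edgeR adjusted p = 0.0185). Ell2 went to 39.8 and 38.1 CPM from 60.4 and 63.5 CPM (log2 −0.64, SE 0.12, edgeR adjusted p = 0.0369). In each of these genes the groups did not overlap.

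Zbtb20 went the other way. It stood at 128 and 99.7 CPM with SAHA and at 73.2 and 70.4 CPM without. The rise was log2 0.69 (SE 0.15, edgeR adjusted p = 0.0436). Jchain was at 39.1 and 34.3 CPM with SAHA and 64.0 and 47.2 CPM without, a difference of log2 −0.57 (SE 0.20) that did not pass (edgeR adjusted p = 0.121). Irf4 was at 263 and 260 CPM with SAHA and 335 and 356 CPM without it, a log2 difference of −0.38 (SE 0.15, edgeR adjusted p = 0.162). Pou2af1 stood at 267 and 232 CPM with SAHA and 272 and 310 CPM without it, a log2 difference of −0.19 (95% interval −0.52 to 0.13, edgeR adjusted p = 0.517). For Jchain, Irf4 and Pou2af1 the groups also did not overlap. By plain library totals those of Pou2af1 did, with 241 CPM in WT LPS replicate 1 and 252 CPM in SAHA replicate 2.

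These calls depended on single libraries. In edgeR, 0 members passed once WT LPS replicate 1, SAHA replicate 1 or SAHA replicate 2 was dropped, although 6, 6 and 5 of them were under 0.05 before adjustment. Leaving out WT LPS replicate 2 kept 2 calls, and without KOKI replicate 1 or 2, whose spread enters the fit, 3 passed. Over the 14 alternatives Prdm1 stayed between log2 −1.45 and −1.32 and Fam46c between −1.80 and −1.43. Other members moved by over 1.5 times, with Zbtb20 between 0.50 and 0.85, Jchain between −0.78 and −0.35, Irf4 between −0.43 and −0.28 and Pou2af1 between −0.30 and −0.10. No member changed sign in any of the 14.

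**Figure D2:**
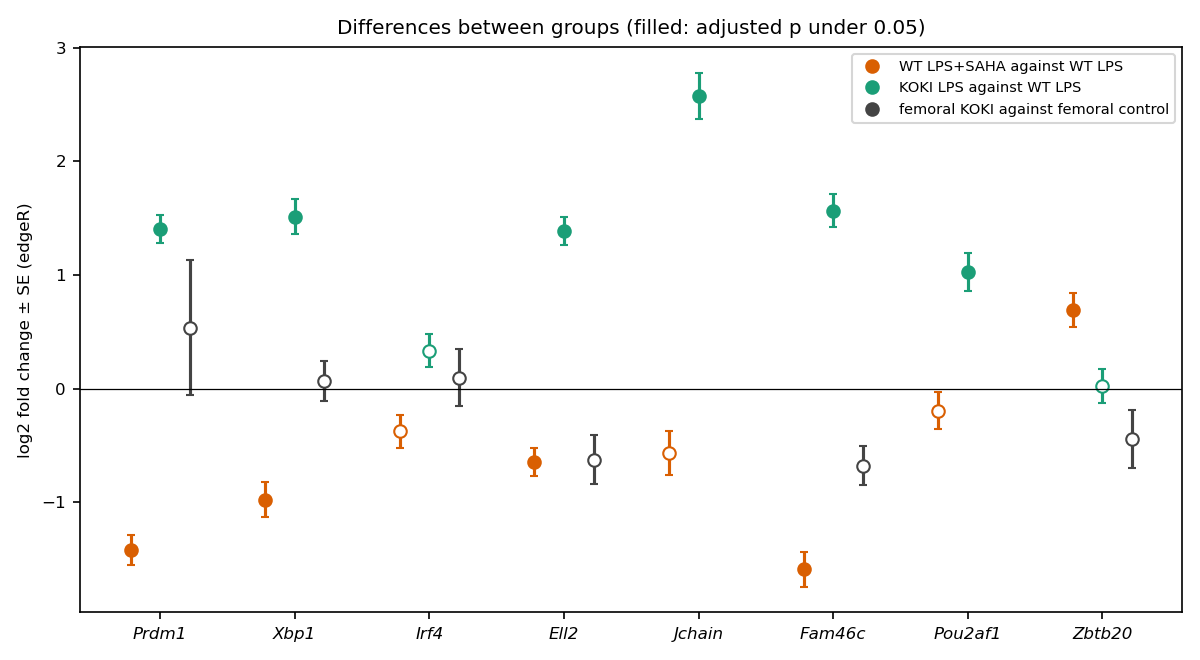
Log2 fold change of each gene with its standard error (vertical axis) for SAHA against WT LPS, KOKI against WT LPS and femoral KOKI against femoral control. Filled points have an edgeR adjusted p under 0.05, and Jchain and Pou2af1 were not tested in the femur. Both splenic comparisons use the same 2 WT LPS libraries, and Jchain has the largest value, log2 2.58 in KOKI.

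Macrophage markers summed to 48.1 to 50.1 CPM with SAHA (8 of 8 with counts) and 28.3 to 28.6 CPM without (7 of 8, Fcgr1 at 0). Mature B cell markers (9 of 9 in both) summed to 4733 to 5037 against 3898 to 4249 CPM. All 9 of their log2 values were above 0. In the main edgeR fit 2 of them passed, Fcer2a at log2 1.19 and Cr2 at log2 1.24. Plasma cell markers summed to 209 to 250 CPM with SAHA (6 of 6) and 316 to 394 CPM without (5 of 6, Tnfrsf17 at 0). The part of cell makeup in the changes of the 8 genes was not tested.

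Of the 41 secretory genes, 10 fell with SAHA, 0 rose and 31 did not pass, with a median of log2 −0.57 against 0.02 over all genes. Hsp90b1, the chaperone GRP94, went from a mean of 862 to 414 CPM (log2 −1.03), Sec24d from 11.3 to 5.51 CPM and Pdia3, a disulfide isomerase, from 306 to 170 CPM (log2 −0.82). DESeq2 and edgeR without a low-count filter each called 22. The count was 0 without WT LPS replicate 1 or either SAHA library, 3 without WT LPS replicate 2, 1 and 2 without KOKI replicates 1 and 2, and 0 with plain library totals, with medians from log2 −0.63 to −0.46. Of the 16 elongation and poly(A) factors 2 fell, Eaf1, a partner of ELL proteins (log2 −0.62), and Cstf2, a poly(A) site factor (log2 −0.57), with 0 rises and a median of log2 −0.20. Zbtb32, a zinc finger repressor, fell among the 13 further transcriptional regulators (log2 −0.90), with 0 rises. Bcl6 rose among the 13 opposing regulators, from 15.1 and 14.7 to 36.0 and 29.4 CPM (log2 1.16), and their median was log2 0.45. Itga4 rose among the 14 surface genes (log2 0.70). With the 4 compared libraries alone, 0 genes of these lists passed in edgeR, and with plain library totals 1 did, an opposing regulator. Without WT LPS replicate 1 or either SAHA library, the median of the opposing regulators ran from log2 0.36 to 0.45.

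**Figure D3:**
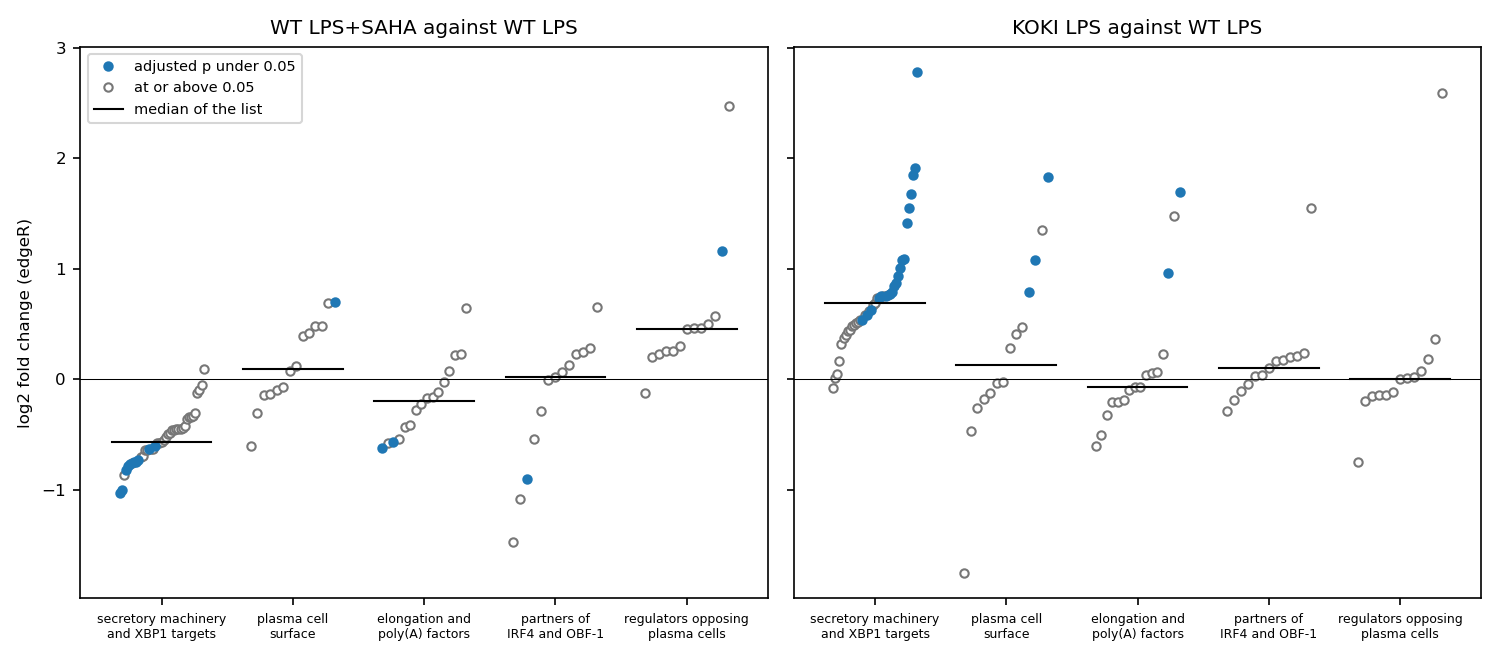
Log2 fold change (vertical axis) of each tested gene of 5 lists, in order of size, for SAHA (left) and KOKI (right) against WT LPS, with filled points at an edgeR adjusted p under 0.05 and a line at each list's median. The secretory list has its median at log2 −0.57 with SAHA and 0.69 in KOKI. The list marked as partners of IRF4 and OBF-1 holds further transcriptional regulators, not all of them such partners.

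**Figure D4:**
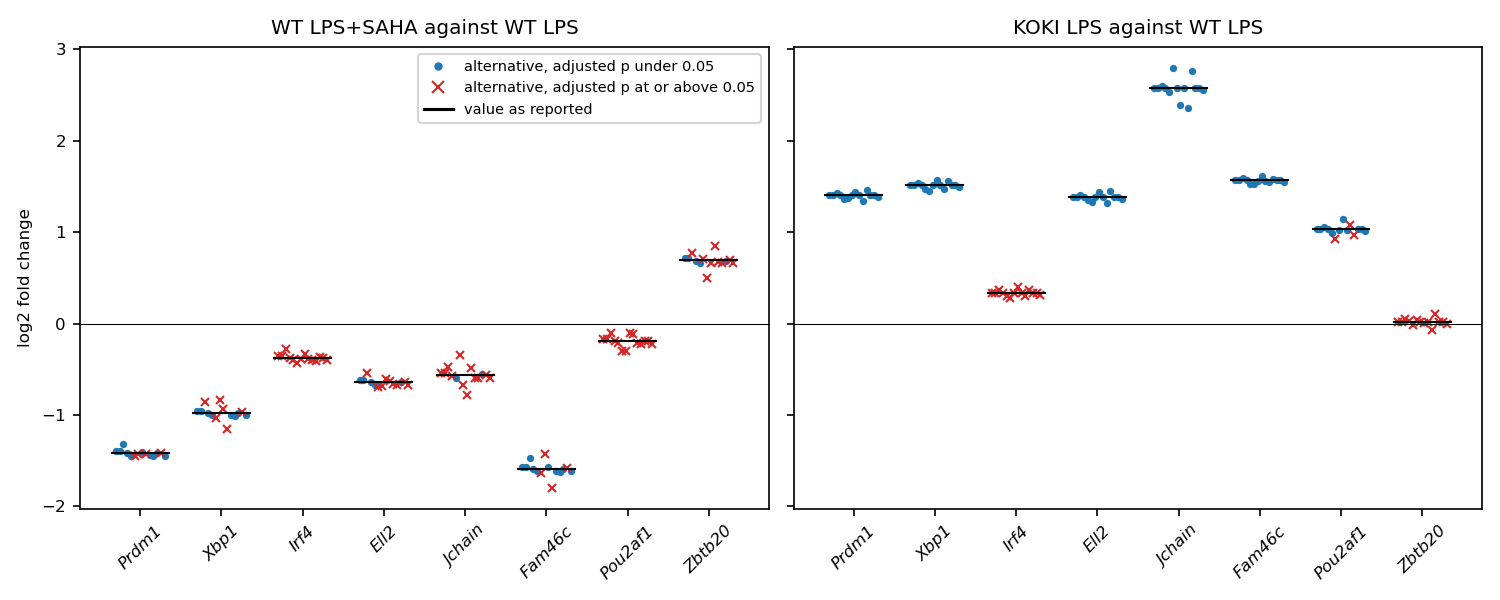
Log2 fold change (vertical axis) of each gene under 14 alternative analyses (dots pass adjusted p under 0.05, crosses do not), with a line at the reported value. With SAHA the values of Prdm1 run from log2 −1.45 to −1.32 and those of Jchain from −0.78 to −0.35. There Prdm1 and Fam46c pass in 10 and Zbtb20 in 5 of 14 alternatives, and in KOKI Prdm1, Xbp1, Ell2, Jchain and Fam46c pass in all 14.

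Set against WT LPS+SAHA, the group that their treatment label names, the KOKI cultures differed in all 8 genes. In this fit 7 were higher and Zbtb20 was lower (edgeR, adjusted p under 0.05), where 23.7% of all genes were called, 14.1% higher and 9.64% lower. Fam46c was at log2 3.16 and Jchain at log2 3.15, followed by Prdm1 at 2.82, Xbp1 at 2.49 and Ell2 at 2.03. Pou2af1 was at log2 1.22, Irf4 at 0.71 and Zbtb20 at −0.67. The highest and lowest of these changes in CPM were 166 and 160 against 15.9 and 20.4 for Fam46c, and 76.3 and 67.1 against 128 and 99.7 for Zbtb20. Irf4 was not called without 1 of either KOKI or SAHA library (adjusted p from 0.0501 to 0.0707). Zbtb20 was not called without SAHA replicate 1 (0.113) or without KOKI replicate 1 or 2 (0.0611 and 0.125). Of the 41 secretory genes, 39 were higher and 0 lower, with a median of log2 1.20 against −0.03 over all genes. The 14 surface genes went both ways, with 3 higher and 4 lower (median log2 0.08). Sdc1 was at log2 2.43, Cd38 at 0.78 and Il6st at 0.69, and the lower ones were Ly6c2 at −1.87, Cd93 at −1.16, Il6ra, a chain of the IL-6 receptor, at −0.68 and the chemokine receptor gene Cxcr4 at −0.66. Without KOKI replicate 1, 0 surface genes were called lower. Of the 13 opposing regulators 5 were lower and 0 higher (median log2 −0.40), namely Bcl6 at −1.32, Id3 (from a mean of 63.1 to 31.6 CPM), Pax5 at −0.67, Ets1 at −0.57 and Ebf1 at −0.44. That count was 1 without KOKI replicate 2 and 2 without KOKI replicate 1 or either SAHA library.

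Within the splenic libraries 7 of the 8 genes had the same order of levels. For Prdm1, Xbp1, Irf4, Ell2, Jchain, Fam46c and Pou2af1 the order of the means was SAHA, WT LPS, KOKI from low to high, with no overlap between neighbours after TMM scaling. By plain library totals the SAHA and WT LPS cultures overlapped for Pou2af1. For Zbtb20 it was KOKI and WT LPS, which overlapped, then SAHA. The share of all genes with the first order was not worked out, and both of its steps use the same WT LPS libraries. The count of 7 is therefore a description. Scaled also by gene length, the CPM per kilobase in WT LPS cultures ran from 113 ± 10.4 (SD, n = 2) for Pou2af1 and 73.4 ± 3.16 for Irf4 through 33.7 ± 1.46 for Xbp1, 22.1 ± 4.73 for Jchain and 17.0 ± 0.608 for Ell2 to 9.18 ± 0.241 for Fam46c and 5.87 ± 0.116 for Prdm1. Zbtb20 was lowest at 2.34 ± 0.0644, with a deposited exon length of 30730 bases that lowers its value. In KOKI cultures Jchain (130 ± 26.2 CPM per kilobase) lay above Xbp1 (94.7 ± 4.59) and Irf4 (91.2 ± 3.35), while Pou2af1 stayed the highest at 228 (lowest and highest CPM 565 and 604).

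Likeness of profiles was measured as the root mean square difference between log2 CPM over the 6 splenic libraries, each gene centred on its own mean, against 9920 genes with a mean of at least 5 CPM. The libraries form 3 groups, so the measure is a description. Among the members, Prdm1 lay closest to Fam46c (0.18) and to Xbp1 (0.21), and Xbp1 to Prdm1 and Ell2 (0.23). Outside the set, Sec24d was nearest to Prdm1 (0.23) and second to Fam46c (0.29), behind Tmed6, a protein of secretory vesicles (0.21). Sfmbt2 (0.12) was nearest to Xbp1 and a kappa light chain V segment (0.10) to Ell2. Jchain was nearest to Hmgb1-ps2, a pseudogene whose reads may be shared with its parent (0.17), and then to Fkbp11 (0.21). Ppil1 (0.03) was nearest to Irf4, Igkv5-43 (0.10) to Pou2af1 and Il5ra, a chain of the IL-5 receptor (0.06), to Zbtb20.

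In the femur no member passed between KOKI and control pools. Jchain and Pou2af1 had too few counts to be tested, and of the other 6 genes 0 were called by edgeR, 2 were at an unadjusted p under 0.05 and DESeq2 called 1. Over 16624 genes 5 were called, or 0.0301%. Fam46c was at 89.5 and 103 CPM in the controls and at 58.4 CPM in the RAG2/gamma c-deficient KOKI pool and 61.7 CPM in the RAG2-deficient one. The groups did not overlap (log2 −0.68, SE 0.18, edgeR adjusted p = 0.158, DESeq2 adjusted p = 0.0371). Ell2 was at 43.2 and 31.3 CPM in the controls and 23.4 and 24.9 CPM in KOKI (log2 −0.63, SE 0.22, edgeR adjusted p = 0.233). Zbtb20 was at 41.9 and 75.0 CPM in the controls, which were far apart, and 43.5 and 41.8 CPM in KOKI (log2 −0.44, SE 0.26). With control replicate 1 left out Fam46c and Zbtb20 passed (edgeR adjusted p = 0.000308 and 0.000159), and with control replicate 2 left out Fam46c and Ell2 did (0.00769 and 0.000433), each against 1 control library.

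Xbp1 overlapped between the femoral groups, at 89.0 and 101 CPM in the controls and 101 and 97.1 CPM in KOKI (log2 0.07, 95% interval −0.28 to 0.41). Irf4 was at 9.47 and 12.9 against 12.9 and 10.9 CPM, and Prdm1 at 0.697 and 1.63 against 1.47 and 1.87 CPM, from 24 to 55 counts a library. Osteoblast markers (6 of 6) summed to 481 to 1141 CPM in the controls and 2192 to 2239 CPM in KOKI, erythroid markers (8 of 8) to 9769 to 9871 and 9094 to 12556 CPM, and neutrophil markers (9 of 9) to 11849 to 15717 and 12510 to 20280.2 CPM. Their part in the values of the 8 genes was not tested. Of the 40 secretory genes tested, 0 were called by edgeR (median log2 0.12 against −0.02 over all genes).

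Between WT LPS cultures and femoral controls, Prdm1, Irf4 and Ell2 were higher in the cultures, Fam46c was lower, and Xbp1 and Zbtb20 did not pass. Jchain and Pou2af1 were called higher as well, but entered the test through the splenic counts alone. Over 20204 genes 42.4% were called, 21.1% higher and 21.3% lower. Tissue, culture, genotype and cell makeup cannot be told apart here. Prdm1 stood at log2 4.79 (SE 0.31) and Irf4 at log2 4.95 (SE 0.23). Jchain had 0 and 6 counts in the femoral controls against 2772 summed over the WT LPS cultures, 485-fold by plain totals (95% exact counting interval 223 to 1324). Pou2af1 had 0 and 1 counts against 14707, a ratio of 15452 (2773 to 610382), and intervals of this kind cover counting error alone. In the femoral KOKI pools Jchain had 0 counts, which allows up to 0.0679 CPM over the group, and Pou2af1 had 0 and 6.

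Ell2 was at log2 0.74 (SE 0.18, edgeR adjusted p = 0.00677), a call lost without femoral control replicate 2 (log2 0.40, adjusted p = 0.0854), without WT LPS replicate 1 (0.0517) and with plain library totals (log2 0.37, adjusted p = 0.192). Fam46c, at log2 −0.78 (SE 0.17, edgeR adjusted p = 0.00344), passed in all 17 alternatives. Xbp1 was at log2 0.20 (SE 0.18, edgeR adjusted p = 0.391) and turned to log2 −0.16 with plain totals. Its level in the femoral pools, 89.0 to 101 CPM, lay above that of the SAHA cultures, 48.8 and 60.2 CPM. The femoral pools also held 68.8 to 91.5 CPM of Ern1, against 8.51 and 11.8 CPM in WT LPS. Zbtb20 was at log2 0.30 (SE 0.25, edgeR adjusted p = 0.355) and passed without femoral control replicate 2 (log2 0.66, adjusted p = 0.0258).

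The splenic and the femoral KOKI differences were compared directly in a fit of all 10 libraries. Fam46c, Ell2 and Xbp1 differed between the tissues, against 0.846% of all 20204 genes called, 0.416% in this direction and 0.431% in the other. The splenic minus the femoral difference was log2 2.23 for Fam46c (SE 0.25, edgeR adjusted p = 0.00182), 1.99 for Ell2 (SE 0.26, edgeR adjusted p = 0.00559) and 1.43 for Xbp1 (SE 0.26, edgeR adjusted p = 0.0296). Fam46c and Ell2 passed in all 15 alternatives. The call for Xbp1 was lost without either WT LPS library (adjusted p = 0.149 and 0.111), either splenic KOKI library (0.118 and 0.109) or either femoral KOKI pool (0.0549 and 0.0836). Prdm1 was at log2 0.87 (SE 0.42, edgeR adjusted p = 0.404) on counts of 24 to 55 in the femur, and Irf4 and Zbtb20 did not pass.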

How the data were processed

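Total RNA (miRNeasy) was made into stranded TruSeq libraries, per the labels' protocols. The values the authors deposited are raw read counts for each gene. STAR 2.4.0a, featureCounts (Subread 1.4.6-p1) and build mm10 are named in the submitters' processing notes. How strand and multiply mapped reads were handled is not given in the sources used here. The table's 100 spike entries were left out. Coordinates and gene lengths are those of the deposited table.

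Tests used edgeR 4.0.16 in R 4.3.3 (TMM, filterByExpr at defaults, quasi-likelihood F test, Benjamini-Hochberg over all genes tested, adjusted p under 0.05). The 3 splenic groups shared 1 fit. The femoral comparison used the 4 femoral libraries, with both KOKI pools as 1 group although their backgrounds differ. Spleen against femur and the difference between tissues used all 10 libraries in 6 groups, where a lone pool was assumed to vary like the others. SE is the fold change divided by the root of F, and 95% intervals are 1.96 SE to each side. Nothing in the labels says that replicates came from separate cultures or animals beyond their numbers, so p-values measure only how far these samples spread, possibly for technical reasons. No pair of libraries in a group was a copy, with a chi-square per degree of freedom of 44.1 to 161. The alternatives were DESeq2 1.42.0, other scalings, no low-count filter, other sets of samples, a replicate block and leaving out each library.

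The members, lists and tests were chosen with earlier results of these data known. The rule for named genes took the 8 members, at most 3 called genes per list and comparison with the largest change, and the 3 nearest profiles per member. Genes given outside it were chosen after their values were seen. These were Rag2, Il2rg, Pax5, Bach2, Ern1, Ms4a1, Ly6c2, Bcl6, Id3, Mitf and Ighd in KOKI. With SAHA they were Fcer2a and Cr2, and in KOKI against SAHA Cd38, Il6st, Il6ra, Cxcr4, Ets1 and Ebf1.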

Additional observations from a re-analysis of the deposited data

Results flagged for a closer look

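The KOKI difference was not the same in cultured spleen cells as in the femoral pools for 3 genes, by a test of the difference itself. Fam46c rose in KOKI spleen cultures and was at log2 −0.68 in femoral KOKI pools, and the difference between the tissues was log2 2.23. For Ell2 the femoral value was log2 −0.63 and the difference 1.99. For Xbp1 the femoral value was log2 0.07 and the difference 1.43. The spleen cultures were stimulated and hold B cells, while the femoral pools hold mostly other blood lineages and are labelled deficient for RAG2. The femoral controls are also labelled deficient for gamma c, while the KOKI pools differ in it. Tissue, culture, genotype and cell makeup therefore cannot be told apart.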

How the results depend on the processing

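Each group has 2 libraries, and depth limits Prdm1, Jchain and Pou2af1 in the femur. With SAHA the main analysis called 712 genes and 5 members. DESeq2 called 1704 genes, no low-count filter 1970, plain totals 32 genes (56.3% of them higher, against 20.5%) and 2 members, all 10 libraries 211 genes and 3 members, the 4 compared libraries alone 0 and 0 (3765 genes and 6 members at an unadjusted p under 0.05), and leaving out 1 library 0 to 290 genes and 0 to 3 members. KOKI against WT LPS called 626 genes and 6 members, DESeq2 1088 genes, no filter 1254, and 1 library fewer 270 to 708 genes and 5 to 6 members. KOKI against SAHA called 3639 genes and 8 members, and 1703 to 3463 genes and 6 to 8 members with 1 library fewer. There 59.4% of calls were higher, and 46.4% with plain totals. The femoral comparison called 5 genes and 0 members, DESeq2 677 genes and 1 member, no filter 662 genes, RLE size factors, plain totals, all 10 libraries and the pool lacking both proteins alone 0 genes each, and 1 library fewer 13 to 3456 genes and 0 to 2 members. Spleen against femur called 8568 genes (49.8% higher, 31.9% with plain totals) and 6 members, and 6094 to 8568 genes and 5 to 6 members with 1 library fewer. The difference between tissues called 171 genes and 3 members, DESeq2 550 genes, no filter 950, plain totals 206 (61.7% higher, against 49.1%), and 1 library fewer 45 to 566 genes and 2 to 3 members. The causes were not tested. Plain totals moved all genes by a median of log2 −0.16 in the femoral comparison, −0.36 between spleen and femur and 0.21 in the difference between tissues, and DESeq2 and RLE by −0.16 and −0.15 between spleen and femur.

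Signs turned only for values that had not passed. In KOKI, Zbtb20 was at log2 −0.0164 without a filter, −0.00204 with all 10 libraries and from −0.0691 (without KOKI replicate 1) to 0.10 with 1 library fewer. With plain totals the femoral Xbp1 was at −0.10 and Irf4 at −0.0645, and between spleen and femur Xbp1 was at −0.16 and Zbtb20 at −0.0649. With DESeq2 Pou2af1 in the difference between tissues was at −0.59. With 1 library fewer, femoral Xbp1 ran from −2.72e-05 to 0.14, Irf4 from −0.084 to 0.32 and Zbtb20 from −0.79 (passing, without control replicate 1) to 0.0139, Zbtb20 between spleen and femur from −0.0600 to 0.66 (passing, without control replicate 2), and Pou2af1 in the difference between tissues from −2.72 to 2.97.

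The numbers in the titles (WT 1, WT 2) may pair libraries, but the labels do not say that they mark an animal or day. Deviations of same-numbered libraries correlated at 0.51 over 12319 genes for WT LPS and SAHA, 0.16 for KOKI and WT LPS, 0.19 for KOKI and SAHA, and −0.02 for spleen and femur. With the number as a replicate block 3413 genes and 6 members passed with SAHA, Jchain being added (log2 −0.55, adjusted p = 0.00701), 1313 and 6 in KOKI, 4269 and 8 in KOKI against SAHA, and 7009 and 6 between spleen and femur. Of the 41 secretory genes 32 were lower with SAHA, 33 higher in KOKI and 40 higher in KOKI against SAHA under the block, of the 13 opposing regulators 7 were higher with SAHA and 9 lower in KOKI against SAHA, and of the 14 surface genes 4 were higher with SAHA.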
